A study of Mus musculus with 2 samples.

Results

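10 genes of protein folding and of the unfolded protein response were followed by name, gene by gene, through 1 single-cell library of mouse retina that listed 31053 genes. They were 6 cytosolic heat shock genes (Hspa8, Hsp90aa1, Hsp90ab1, Hsph1, Hspa1b and Dnajb1), 2 chaperones of the endoplasmic reticulum (Hspa5 and Hsp90b1) and 2 transcription factors (Ddit3 and Atf4). They were chosen by name and not by a threshold on a measured value, with earlier results of these data known, and all 10 had at least 1 count in rods. On build mm10, Hspa8 lies at chr9:40800984-40810087, Hsp90aa1 at chr12:110690605-110702728, Hsp90ab1 at chr17:45567775-45573271, Hsph1 at chr5:149614287-149636376, the single-exon gene Hspa1b at chr17:34956436-34959238 and Dnajb1 at chr8:83608193-83612653. Hspa5 lies at chr2:34771970-34777547, Hsp90b1 at chr10:86690209-86705509, Ddit3 at chr10:127290774-127296288 and Atf4 at chr15:80255184-80257541. Newborn wild-type mouse retinas were electroporated in vivo with a pCIG2 plasmid that carried an IRES2-EGFP reporter, either empty (control) or with lamin A (Lmna) or the lamin B receptor (Lbr), and the study asked what tethering of heterochromatin to the nuclear envelope does in rods. The retinas were dissociated in Accutase when the mice were adult, viable EGFP+ cells were sorted, each condition was marked with its own lipid-anchored tag, and the 3 conditions were pooled for a single 10x Genomics run. All 3 conditions shared the plasmid backbone and the reporter. CD1 and C57BL/6J mice were used in the study, and which of them gave these retinas is not stated. Since the labels do not tell which tag marks which condition, the groups are named tag 1, tag 2 and tag 3. How many barcodes were called to each tag, before any filter, matches the rod numbers stated in the study for its conditions, but no tag was named from this match. Each tag was 1 pool of an unstated number of animals. No difference between tags or cell classes could therefore be tested, and the intervals given below cover counting error only.

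Cytosolic chaperones of the Hsp70 and Hsp90 families fold new and damaged proteins with energy from ATP, and co-chaperones of the J-domain and Hsp110 families stimulate or recharge them. Their inducible members are switched on by heat shock factor 1 when unfolded protein gathers in the cytosol. Unfolded protein in the endoplasmic reticulum instead activates the sensors IRE1, PERK and ATF6, which raise reticulum chaperones through the endoplasmic reticulum stress element of their promoters and, through translation of ATF4, the death-associated factor CHOP that Ddit3 encodes. Rods renew their outer segments continually and pass large amounts of membrane protein through the reticulum.

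The promoters of the reticulum pair carry a motif that the other members read here lack. RefSeq promoters (build GRCm38.p6, 250 bases before to 50 after a transcription start) were given for 7 of the 10 genes, namely Hsph1, Hspa1b, Dnajb1, Hspa5, Hsp90b1, Ddit3 and Atf4. The endoplasmic reticulum stress element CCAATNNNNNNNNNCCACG was searched on both strands, and its 5′ end is itself a CCAAT box, which 37.4% of promoters hold. The whole element occurred in 39 of the 32851 promoters (0.119%). Hspa5 held 1 match that began 65 bases upstream of the start, and Hsp90b1 held 2, at 212 and 107 bases upstream. Among the other lists read here, 6 of the 19 promoters of further reticulum genes held it (Calr, Canx, Creld2, Dnajc3, Pdia6 and Syvn1), and 0 promoters of the remaining lists did. The heat shock element of 3 units, GAANNTTCNNGAA or TTCNNGAANNTTC, was in 0.603% of promoters, and Hsph1 held it 36 bases downstream of its first listed start. The shorter element of 2 units, GAANNTTC or TTCNNGAA, is contained in the longer one and was in 15.1% of promoters, Hspa1b among them at 104 bases upstream. A match is a string of letters and not a measured binding site. The 250 bases upstream of the RefSeq start are shown for Hspa5 and Hsp90b1, the reticulum pair, and for Hspa1b, the classical heat-inducible Hsp70 gene, 5′ to 3′ on the strand of the gene, with the letters of the stress element or of the 2-unit heat shock element in capitals. They lie at chr2:34771840-34772089 (plus strand), chr10:86705445-86705694 (minus strand) and chr17:34959239-34959488 (minus strand).
Hspa5: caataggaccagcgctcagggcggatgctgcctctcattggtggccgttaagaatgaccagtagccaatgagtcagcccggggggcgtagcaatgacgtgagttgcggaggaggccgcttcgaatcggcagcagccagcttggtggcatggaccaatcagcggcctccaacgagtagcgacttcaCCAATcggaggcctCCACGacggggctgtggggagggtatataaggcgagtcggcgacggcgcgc
Hsp90b1: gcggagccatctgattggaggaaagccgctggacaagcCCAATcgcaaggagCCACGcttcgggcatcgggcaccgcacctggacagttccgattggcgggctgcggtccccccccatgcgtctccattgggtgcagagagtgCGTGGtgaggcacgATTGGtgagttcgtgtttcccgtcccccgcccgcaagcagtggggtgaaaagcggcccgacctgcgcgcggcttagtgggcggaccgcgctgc
Hspa1b: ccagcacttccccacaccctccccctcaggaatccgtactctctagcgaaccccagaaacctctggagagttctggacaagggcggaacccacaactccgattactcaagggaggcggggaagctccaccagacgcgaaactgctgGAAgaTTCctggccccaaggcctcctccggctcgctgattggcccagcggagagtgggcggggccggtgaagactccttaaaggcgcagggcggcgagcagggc

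The expression matrix held 834 barcodes and 2487110 unique molecular identifiers (UMIs, each a captured transcript), with a median of 2395. Of these barcodes 645 were also in the tag matrix and 621 were called to a tag, while 189 were in the expression matrix alone, and 409 passed the filter of 200 to 2500 genes and at most 18% mitochondrial UMIs. Clustering without the 10 genes and the lists related to them gave 583 rod-like, 88 Müller glia-like, 39 bipolar-like, 17 microglia-like and 10 cone-like barcodes. Each rod-like cluster had all 13 rod markers in at least 25% of its cells. The Müller glia-like barcodes had 3 of 10 markers of that class in at least 25% of cells, a median of 1167 UMIs and 50.4% mitochondrial UMIs. The library is labelled as rods, and the other classes are described below as they were found. A cluster of 68 barcodes also showed all 13 rod markers but was led by 1 cone marker, Gnb3, and stayed unnamed. With it counted as rods, an alternative chosen after seeing the data, the reticulum pair kept its log2 ratio between tags 2 and 1 at 0.63 and Hsp90ab1 was at -1.58. Of the barcodes of this cluster that passed, 40, 8 and 6 carried tags 1, 2 and 3, and no value of tag 3 is given with them. The rods that passed numbered 145, 120 and 14 for tags 1, 2 and 3, with 417744, 308832 and 34062 UMIs and medians of 2720, 2620 and 2527 UMIs per rod. Their median mitochondrial shares were 10.7, 14.4 and 10.1%.

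Among these 279 rods the members spanned a range from 22 to 2043 UMIs. Levels are given as CPM, the UMIs of a gene per 1000000 UMIs of the group, and each UMI stands for 1 transcript end whatever the length of the gene. Hsp90aa1, the stress-inducible cytosolic Hsp90, led with 2043 UMIs (2686 CPM) and ranked 40 of the 9727 genes with a UMI in rods. Hspa8, the constitutive cytosolic Hsp70, followed at rank 154 with 732 UMIs, then the reticulum Hsp90 gene Hsp90b1 (418, rank 253), the reticulum Hsp70 gene Hspa5 (266, rank 396) and Atf4 (230, rank 458). Hsp90ab1, the constitutive cytosolic Hsp90 and the partner of Hsp90aa1, ranked only 966 with 111 UMIs. Ddit3 (77 UMIs), Hspa1b (56), the Hsp110 gene Hsph1 (32) and the J-domain gene Dnajb1 (22) were sparse. At least 1 of the 10 genes was seen in all but 9 of the rods, with a median of 3 genes per rod, and 23 rods had 5 or more.

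Of the 2 cytosolic genes with most counts, Hsp90aa1 had overlapping intervals in all 3 tags and Hspa8 did not. Hsp90aa1 stood at 2758 CPM for tag 1 (2601 to 2922), at 2613 CPM for tag 2 (2436 to 2800) and at 2466 CPM for tag 3 (1967 to 3053), all 95% Poisson intervals. These overlapped, and a UMI was seen in 88.3, 85.8 and 71.4% of rods. Hspa8 stood at 797 CPM for tag 1 (714 to 888), at 1120 CPM for tag 2 (1005 to 1245) and at 1556 CPM for tag 3 (1166 to 2035). The interval of tag 1 overlapped neither of the others, while those of tags 2 and 3 overlapped. Relative to tag 1, the log2 ratio of Hspa8 was 0.49 in tag 2 (exact interval 0.27 to 0.71) and 0.98 in tag 3 (0.52 to 1.39). Relative to tag 2 it was 0.49 in tag 3 (0.03 to 0.89). A single rod held 25 of the 53 UMIs of tag 3, and without the top rod of each group the ratios of tag 3 were 0.17 to tag 1 (-0.47 to 0.71) and -0.33 to tag 2 (-0.97 to 0.20). Among the 2029 genes with at least 20 expected UMIs, the value of 0.49 for tags 2 and 1 stood at the 82.4 percentile. With every rod thinned to 1200 UMIs, the share of rods with a UMI of Hspa8 was 44.2, 48.6 and 53.8%, and the 3 exact binomial intervals overlapped. Of the last 400 bases of Hspa8, which this method reads, 76.6% of 50-base windows also occur in 11 other annotated genes, so its count is uncertain.

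Between tags 1 and 2 the largest ratio of any member with enough counts was that of Hsp90ab1. It had 85 UMIs in 20 rods of tag 1 (203 CPM, 163 to 252), against 20 UMIs in 8 rods of tag 2 (64.8 CPM, 39.6 to 100) and 6 UMIs in 2 rods of tag 3 (176 CPM, 64.6 to 383). Tag 2 was the lowest, and its interval did not reach that of tag 1. The log2 ratio was -1.62 in tag 2 against tag 1 (-2.43 to -0.94), at the 2.86 percentile of all genes with enough counts. The counts came in few rods, since a rod with a UMI held 4.25 on average in tag 1 and 2.5 in tag 2. Shares among rods thinned to 1200 UMIs, 10.1 and 5.41%, had overlapping intervals, and counting a gene once per rod gave a log2 ratio of -0.80 (-2.24 to 0.39). With all cells that pass in place of rods alone it was -0.21 (-0.62 to 0.18), and 11 bipolar-like cells, a class in which the gene was high, carried tag 2.

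The remaining cytosolic genes were near the limit of this depth. Hspa1b had 26 UMIs in 15 rods of tag 1 (62.2 CPM) and 30 UMIs in 15 rods of tag 2 (97.1 CPM). Hsph1 had 22 and 10 UMIs, in 5 and 3 rods, and Dnajb1 had 11 in each tag, in 5 and 3 rods. For each of these genes the interval of the log2 ratio spanned 0. Each had 0 UMIs in the 14 rods of tag 3, where a count of 0 allows up to 88.1 CPM by the limit of 3 counts. The share of rods with a UMI had a Clopper-Pearson upper limit of 23.2%, and for Hsph1 and Dnajb1 both limits are above what the other tags showed. Hspa1a encodes nearly the same protein as its neighbour Hspa1b, but 0 of the 50-base windows in the last 400 bases of either gene occur in another gene. It had 17 UMIs in tag 1, against 7 in tag 2 and 5 in tag 3, the last all in 1 rod.

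Both reticulum chaperones were higher in tag 2 than in tag 1. Hspa5, the master Hsp70 of the reticulum known as BiP, had 120 UMIs for tag 1, 143 for tag 2 and 3 for tag 3, or 287 CPM (238 to 344), 463 (390 to 545) and 88.1 (18.2 to 257). Hsp90b1, which folds secreted and membrane proteins, had 195, 217 and 6 UMIs, or 467 CPM (404 to 537), 703 (612 to 803) and 176 (64.6 to 383). For both genes the order was tag 2, tag 1, tag 3, tags 1 and 2 had intervals apart from each other, and that of tag 3 reached into the interval of tag 1 for Hspa5 but not for Hsp90b1. In tag 2 against tag 1 the log2 ratio was 0.69 for Hspa5 (0.33 to 1.05) and 0.59 for Hsp90b1 (0.30 to 0.88), at the 89.2 and 86.3 percentiles of 2029 genes. UMIs were present in 25.5, 28.3 and 14.3% of rods for Hspa5 and in 35.9, 45.8 and 21.4% for Hsp90b1. Thinned to 1200 UMIs, the shares were 18.6, 23.4 and 7.69% for Hspa5 and 27.1, 36.0 and 23.1% for Hsp90b1, with overlapping intervals throughout.

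For the 2 transcription factors the intervals of tags 1 and 2 overlapped. Atf4, whose protein is made mainly through regulated translation, had 120 UMIs in 39 rods of tag 1 (287 CPM), 106 in 29 rods of tag 2 (343 CPM) and 4 in 2 rods of tag 3 (117 CPM), and the log2 ratio of the large tags was 0.26 (-0.13 to 0.65). Ddit3 had 44 UMIs in 16 rods of tag 1 (105 CPM) and 33 UMIs in 7 rods of tag 2 (107 CPM), with a log2 ratio of 0.03 (-0.68 to 0.70). Ddit3 had 0 UMIs in tag 3, with the same limit of 88.1 CPM. The Poisson interval of that 0 reached 108 CPM, above the levels of tags 1 and 2, so it did not set tag 3 apart. The end of Ddit3 overlaps Mars on the other strand, and the sources used here do not tell whether counting used the strand.

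**Figure D1:**
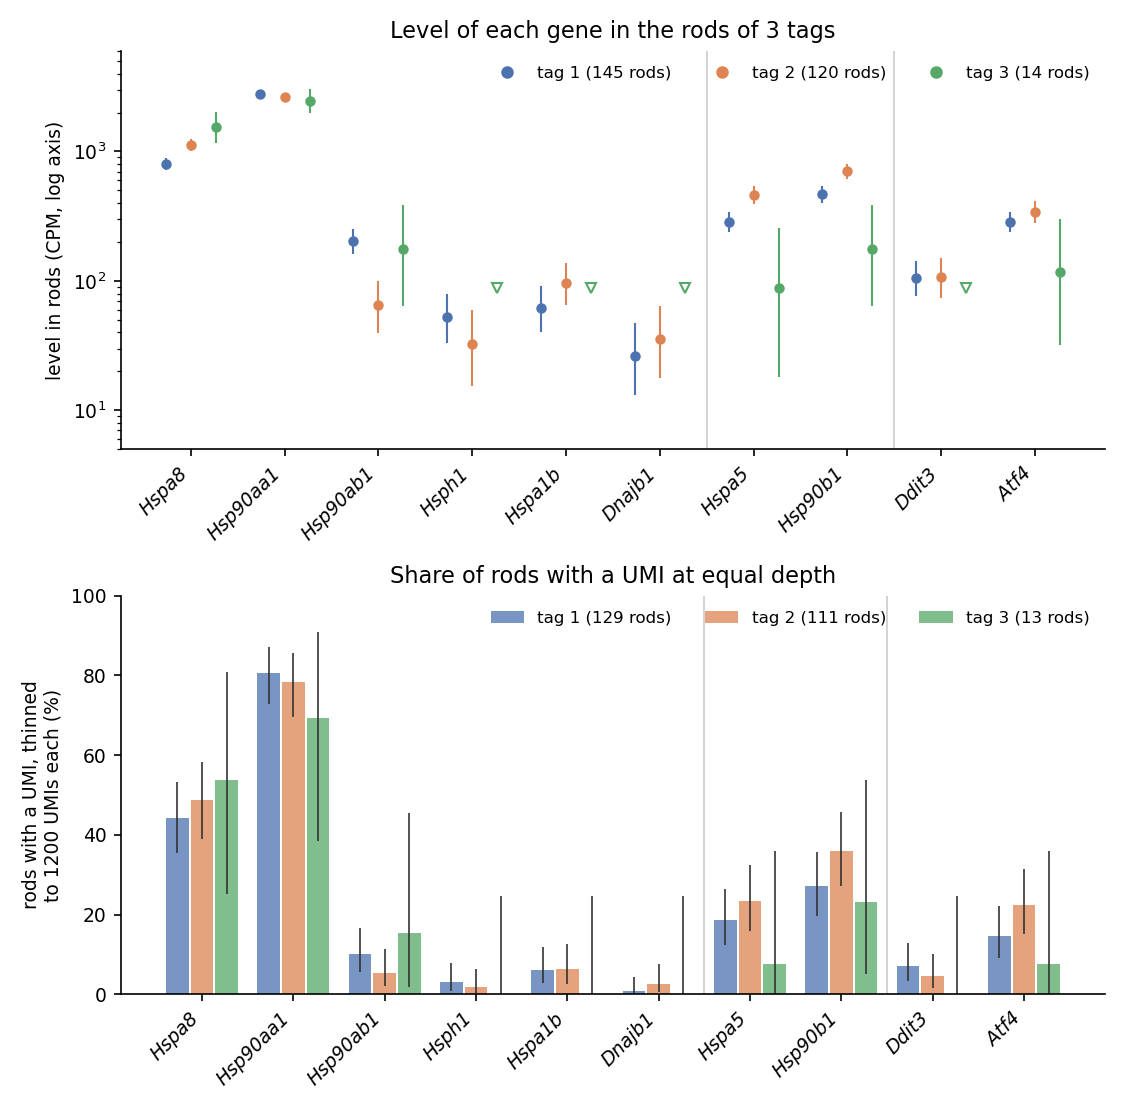
Level of each of the 10 genes (top, CPM on a log axis) and share of rods with a UMI after thinning each rod to 1200 UMIs (bottom, percent) in the rods of tag 1 (blue), tag 2 (orange) and tag 3 (green), with 95% counting intervals; grey lines part cytosolic, reticulum and transcription factor genes, and a hollow triangle marks a gene with 0 UMIs, drawn at the limit of 3 counts. Hspa5 and Hsp90b1 sit higher in tag 2 (463 and 703 CPM) than in tag 1 (287 and 467), Hsp90ab1 sits lower (64.8 against 203), and the intervals of the thinned shares overlap for each gene.

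Summed over genes, the interval of the ratio of tags 2 and 1 left out 0 for the reticulum members and spanned it for the cytosolic members. The 6 cytosolic genes together had 1629 UMIs (3900 CPM) for tag 1, 1224 UMIs (3963 CPM) for tag 2 and 143 UMIs (4198 CPM) for tag 3. Their log2 ratio was 0.02 in tag 2 against tag 1 (-0.08 to 0.13). Hsp90aa1 gave most of this sum, with 1152 UMIs in tag 1 and 807 in tag 2. Within the sum Hspa8 was higher in tag 2 (0.49) and Hsp90ab1 lower (-1.62), so it does not show that each cytosolic gene was level. The reticulum pair had 315 UMIs (754 CPM) for tag 1, 360 UMIs (1166 CPM) for tag 2 and 9 UMIs (264 CPM) for tag 3. The log2 ratio of the pair was 0.63 between tags 2 and 1 (0.41 to 0.85), and the cytosolic ratio minus the reticulum ratio was -0.60 (-0.85 to -0.36). With each gene counted once per rod this difference was -0.31 (-0.84 to 0.21), an interval that spans 0. Cytosolic UMIs per reticulum UMI were 5.17 (4.58 to 5.85) for tag 1, 3.4 (3.02 to 3.84) for tag 2 and 15.9 (8.14 to 35.5) for tag 3. The 9 UMIs of tag 3 lay in 4 rods, and the log2 ratio of the pair was -1.44 to tag 1 (-2.66 to -0.57) and -2.07 to tag 2 (-3.28 to -1.20). Without a filter on cells the first of these was 0.12, and the 6 rods of tag 3 between 18 and 25% mitochondrial UMIs alone held 14 UMIs of Hspa5. Between tags 2 and 1 the ratio of the pair stayed from 0.42 to 0.71 under 13 other settings. Immediate early genes, a list of 14 that tissue dissociation can switch on, were at 577, 609 and 294 CPM in the same rods, and their part in these differences was not tested.

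Of the 10 genes, 8 had at least 20 expected UMIs for the comparison of tags 2 and 1. At a 2-fold difference, 0 of these 8 were higher, where 5.17% of 2029 genes were, and 1 was lower (Hsp90ab1), where 8.28% were. By an interval that leaves out 0, 3 of the 8 were higher (Hspa8, Hspa5 and Hsp90b1) against 16.2% of all genes, and 1 was lower against 21.4%. The median log2 ratio of the 8 was 0.37, beside -0.05 over all 2029 genes. For tags 3 and 1 only Hspa8 and Hsp90aa1 had enough counts, where 3.35% of 239 genes were 2-fold higher and 7.11% lower, and neither passed 2-fold. For tags 3 and 2 there were 3, of which 0 were 2-fold higher and Hsp90b1 was 2-fold lower (-1.88, -3.46 to -0.85), beside 4.58 and 6.67% of 240 genes.

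**Figure D2:**
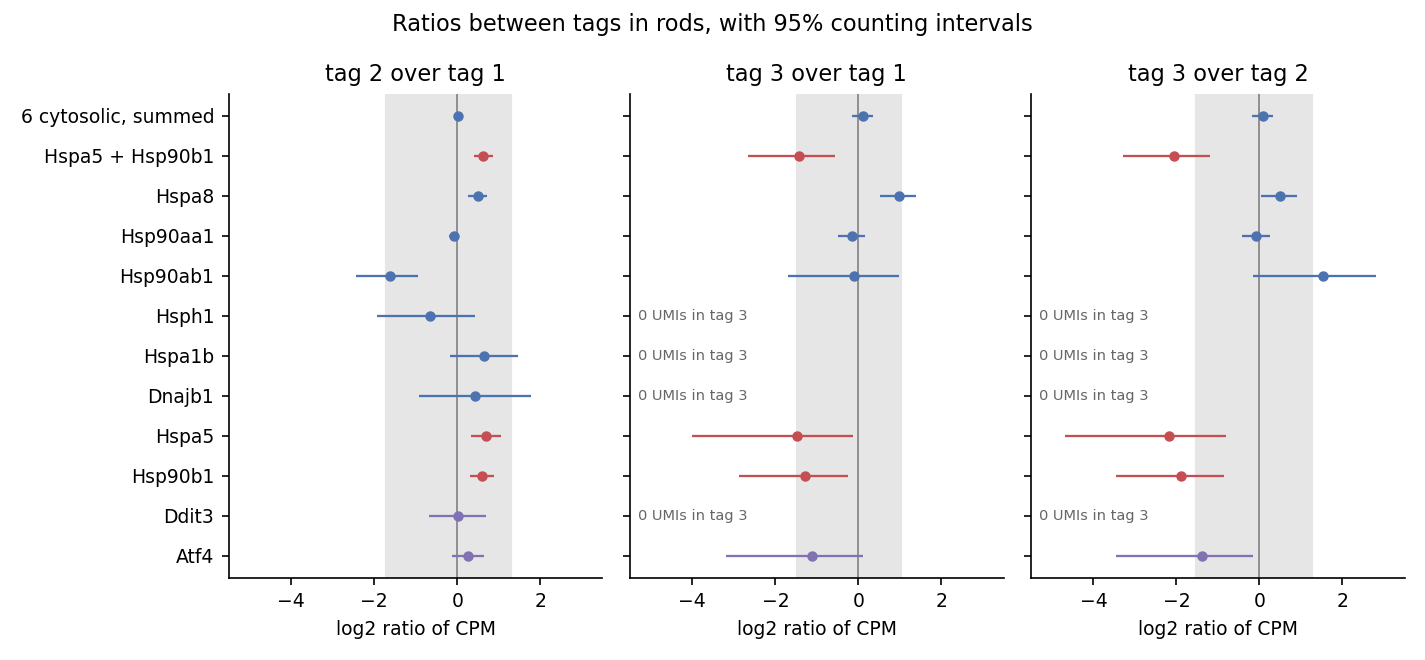
Log2 ratio of CPM between tags in rods for the summed cytosolic genes, the summed reticulum pair and each gene (blue cytosolic, red reticulum, purple transcription factors), with exact 95% counting intervals; the grey band holds the central 95% of all genes with at least 20 expected UMIs. The reticulum pair lies at 0.63 for tags 2 and 1 and at -1.44 and -2.07 where tag 3 is compared, while the cytosolic sum stays between 0.02 and 0.11.

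Further genes of the same pathways are given by list. Of 24 other reticulum chaperones and degradation genes, 9 had enough counts in tags 2 and 1, of which 3 were 2-fold higher (5.17% of all 2029 genes were), 0 were 2-fold lower (8.28%), 5 had an interval above 0 (16.2%) and 0 had one below (21.4%), with a median of 0.87 beside -0.05. Of the 2 with most UMIs, the calcium-binding chaperone Calr was at 440 CPM in tag 2 and 177 in tag 1 (log2 ratio 1.31, 0.89 to 1.74) and its membrane-bound relative Canx at 220 and 215. The summed level of this list was 1556 CPM for tag 1 (1439 to 1680), 2098 CPM for tag 2 (1940 to 2266) and 2407 CPM for tag 3 (1915 to 2988), so that tag 3 was not the lowest here as it was for Hspa5 and Hsp90b1. Of 38 other cytosolic chaperones and co-chaperones, 24 had enough counts, 0 were 2-fold higher and 2 lower, 4 had an interval above 0 and 2 below, against the same shares of all genes, and the median was 0.09. Its leading genes were Aipl1, the photoreceptor co-chaperone of phosphodiesterase (log2 ratio 0.70, 0.46 to 0.95), and St13, an Hsp70-interacting protein (0.63, 0.30 to 0.96). Of 15 further sensors, factors and targets of the unfolded protein response, 10 had 3 or fewer UMIs in rods and 1 had enough counts, Vldlr (0.16, -0.22 to 0.54), and the second by UMIs, the translation factor gene Eif2s1, had 15 UMIs in tag 2 and 23 in tag 1.

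Across cell classes, in which barcodes were taken whether or not they passed the filter, rods were by summed UMIs highest for 1 gene of the cytosolic Hsp90 pair and lowest for the other. Hsp90aa1 was at 2703 CPM in the 583 rods (2623 to 2785), 1787 in cone-like (1373 to 2286), 727 in bipolar-like (635 to 828), 311 in microglia-like and 255 in Müller glia-like barcodes. Hsp90ab1 was at 153 CPM in rods (134 to 173), 425 in cone-like (238 to 702), 554 in bipolar-like (474 to 643), 873 in microglia-like and 340 in Müller glia-like barcodes. By this measure the intervals of rods overlapped those of no other class for either gene. The Hsp90ab1 UMIs lay in only 2 of the 10 cone-like and 10 of the 88 Müller glia-like barcodes. The lead of rods over cone-like barcodes in Hsp90aa1 was lost at equal depth, where the log2 ratio went from 0.59 (0.24 to 0.98) to 0.000128 (-0.60 to 0.75) at 800 UMIs, and with each gene counted once per cell it was 0.25 (-0.66 to 1.55). There were 17.7 UMIs of Hsp90aa1 for each of Hsp90ab1 in rods (15.6 to 20.2), 4.2 in cone-like (2.36 to 7.94), 1.31 in bipolar-like (1.07 to 1.61), 0.75 in Müller glia-like (0.473 to 1.18) and 0.356 in microglia-like barcodes (0.205 to 0.595). This quotient needs no total of UMIs, so the mitochondrial UMIs of a class do not enter it. In the rods of tags 1, 2 and 3 it was 13.6 (10.9 to 17.1), 40.4 (26.0 to 66.4) and 14 (6.17 to 39.2). With every barcode thinned to 800 UMIs, Hsp90aa1 was seen in 66.6% of rods and 31.4% of bipolar-like barcodes, and Hsp90ab1 in 6.02 and 28.6%, with no overlap of the intervals in either case. For Hsp90ab1 the shares of Müller glia-like (9.52%, 3.58 to 19.6) and cone-like barcodes (20%, 2.52 to 55.6) overlapped that of rods (4.18 to 8.35). The share of microglia-like barcodes (35.7%, 12.8 to 64.9) did not. The Hsp90aa1 UMIs of the microglia-like class were all in 1 of 17 barcodes.

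**Figure D3:**
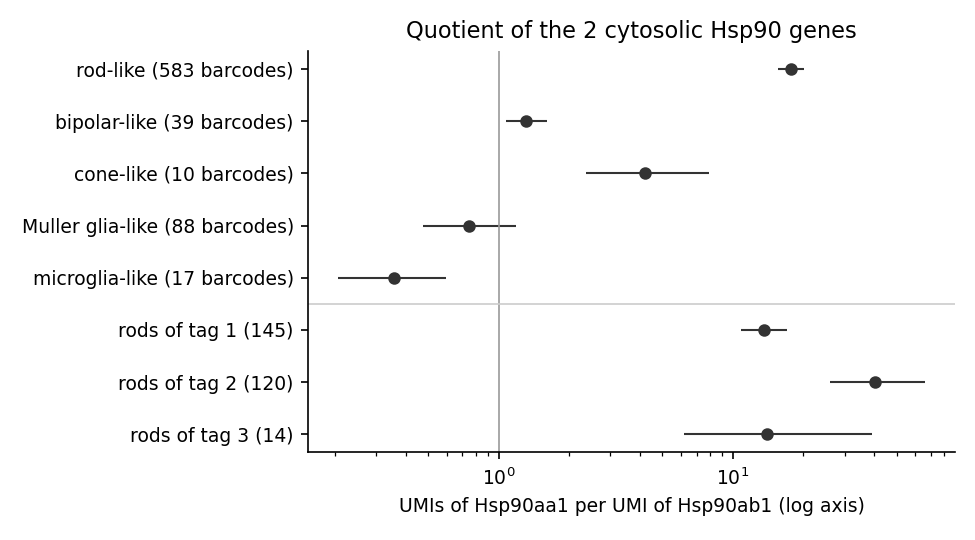
UMIs of Hsp90aa1 per UMI of Hsp90ab1 (log axis) in the 5 named cell classes and in the rods of each tag that passed the filter, with 95% counting intervals; the vertical line marks equal counts. Rods sit at 17.7 and each tag of rods at 13.6 or more, bipolar-like barcodes at 1.31, and microglia-like barcodes at 0.356.

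The other members were ordered differently. Hspa8 was lower in rods (952 CPM, 905 to 1001) than in bipolar-like (1520), microglia-like (1449) and cone-like barcodes (1390), which did not differ from each other beyond their intervals, and higher than in Müller glia-like ones (318). Without mitochondrial UMIs in the total, Hspa8 was at 1138.5 CPM in rods and 724.6 in Müller glia-like barcodes. The log2 ratio of these 2 classes was as low as 0.07 among 8 other settings. With each gene counted once per cell, the log2 ratio of Hspa8 in rods turned from -0.68 to 0.66 over bipolar-like and from -0.61 to 0.12 over microglia-like barcodes, while at an equal 800 UMIs it was seen in 35.9% of rods and 60% of bipolar-like barcodes. Hspa5 was at 378 CPM in rods, 592 in microglia-like, 425 in cone-like, 218 in bipolar-like and 84.9 in Müller glia-like barcodes, and Hsp90b1 at 499, 1183, 199, 394 and 113. Microglia-like barcodes had the highest level of both reticulum genes, with an interval that overlapped that of cone-like barcodes for Hspa5. With each gene counted once per cell Hsp90b1 in rods over microglia-like barcodes turned from -1.25 to 0.11 (-0.87 to 1.54), and as a mean of CPM over cells Hspa5 turned from -0.66 to 0.0043. Microglia-like barcodes had 1.98 cytosolic UMIs per reticulum UMI against 4.48 in rods, 4.70 in bipolar-like and 4.61 in Müller glia-like barcodes. By CPM Atf4 was highest in rods, at 261 CPM (236 to 287) against 131 in bipolar-like (94.2 to 178), 85.1 in cone-like (17.5 to 248.6, 3 UMIs), 59.2 in microglia-like and 14.2 in Müller glia-like barcodes. The interval of cone-like barcodes reached into that of rods. At an equal 800 UMIs Atf4 was seen in 11.7% of rods (9.11 to 14.7) and 5.71% of bipolar-like barcodes (0.70 to 19.2), which overlapped. In Müller glia-like barcodes that share was 1.59% (0.04 to 8.53). Ddit3 lay between 67.2 and 163 CPM in every class, with overlapping intervals. Its log2 ratio in rods over microglia-like barcodes was -1.15 (-1.98 to -0.05), from 11 UMIs in 2 of the 17 microglia-like barcodes. Hspa1b had 89 UMIs in 46 rods (55.2 CPM) and 0 in bipolar-like, cone-like and Müller glia-like barcodes. In bipolar-like barcodes a count of 0 allows up to 9.60 CPM. At an equal 800 UMIs the share was 3.65% of 548 rods and 0 of 35 bipolar-like barcodes, whose interval reached 10%. Of its 41 UMIs in microglia-like barcodes, 40 were in 1 cell. Hsph1 (41.6 CPM in rods, 32.2 to 52.8) and Dnajb1 (27.9 CPM, 20.4 to 37.4) were counted in 16 and 15 of 583 rods. Both showed 0 UMIs in Müller glia-like barcodes, where a count of 0 allows up to 21.2 CPM. Hsph1 was higher in cone-like (199 CPM, 79.8 to 409, 3 barcodes) and microglia-like ones (163 CPM, 81.2 to 291, 2 barcodes) than in rods. Dnajb1 was at 104 CPM in microglia-like barcodes (41.6 to 213, 1 barcode) and had 0 UMIs in cone-like ones. In bipolar-like barcodes the genes were at 44.8 and 28.8 CPM.

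Of the 10 genes, 6 had enough counts for rods over Müller glia-like barcodes, of which 5 were 2-fold higher and 1 lower (Hsp90ab1), beside 56.6 and 4.51% of 910 genes and a median over all of those genes of 1.30. Over bipolar-like barcodes 7 had enough, with 1 higher (Hsp90aa1, 1.89) and 1 lower (Hsp90ab1, -1.86), beside 26.3 and 14.2% of 2148 genes and a median over them of 0.20. Over microglia-like barcodes 4 had enough, with 1 higher (Hsp90aa1, 3.09) and 1 lower (Hsp90b1, -1.25), beside 57.5 and 8.82% of 431 genes and a median over them of 1.48. Over cone-like barcodes 2 had enough and neither passed 2-fold, beside 27.9 and 3.1% of 226 genes. The sort gated on EGFP, and what part it has in the presence of the other classes was not tested.

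**Figure D4:**
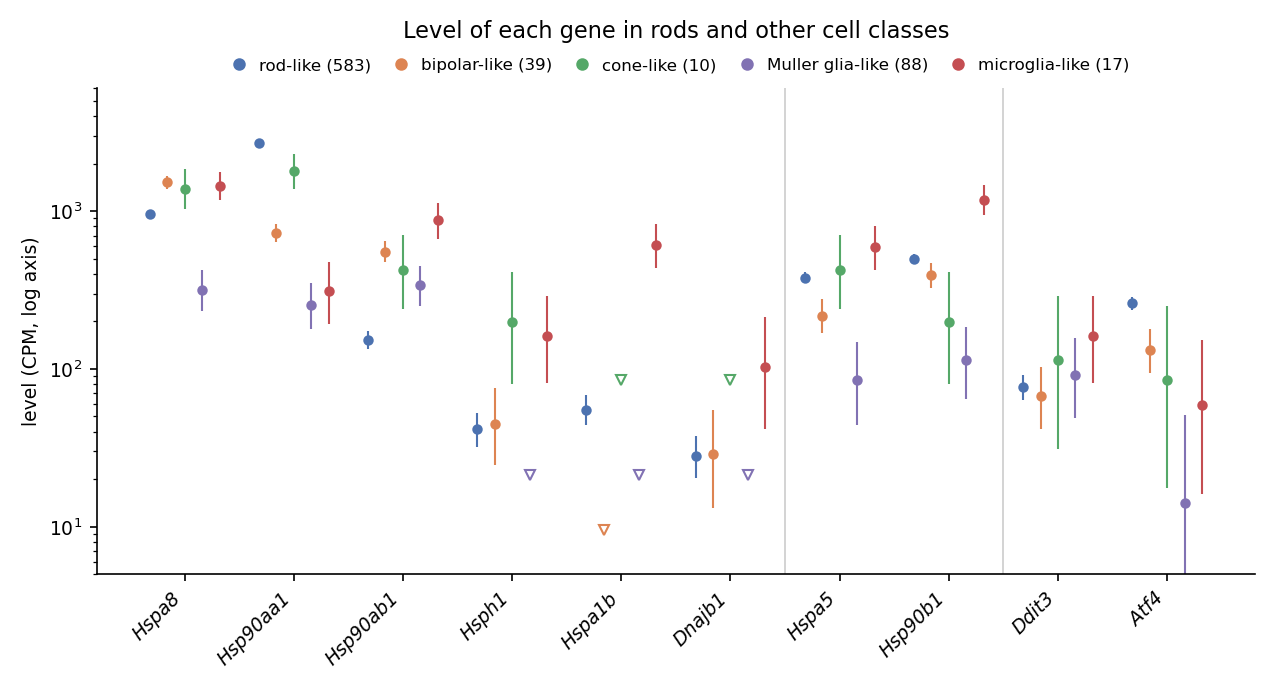
Level of each gene (CPM, log axis) in rod-like (blue), bipolar-like (orange), cone-like (green), Müller glia-like (purple) and microglia-like (red) barcodes, with 95% counting intervals; a hollow triangle marks 0 UMIs, drawn at the limit of 3 counts. Hsp90aa1 is highest in rods (2703 CPM) and Hsp90ab1 lowest there (153 CPM), and microglia-like barcodes lead for Hsp90b1 (1183 CPM), an order that turned when each gene was counted once per cell (log2 ratio of rods 0.11).

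Rods also differed by their mitochondrial share, a sign of cell quality that varied between tags. All 583 rods were divided at 10, 18 and 25% mitochondrial UMIs into groups of 106, 208, 156 and 113. Hspa5 was at 145 CPM (111 to 185), 384 (336 to 437), 488 (420 to 563) and 663 (554 to 786) from the lowest to the highest group, with an overlap between each of the upper 3 groups and its neighbour and none with the lowest. With mitochondrial UMIs left out of the sums, Hspa5 was 6.73-fold higher in the highest than in the lowest group (log2 ratio 2.75, 2.31 to 3.21), at the 99.9 percentile of 1080 genes, of which 6.39% were 2-fold higher and 18.1% lower. The share of rods with a UMI of Hspa5, at 800 UMIs each, was 14.1, 19.1, 18 and 21.5%, with overlapping intervals, and rods with the gene held 2.86 UMIs of it in the lowest group and 4.68 in the highest. Of the 131 UMIs of the highest group, 90 came from 68 rods that were not in the tag matrix (851 CPM). Within tag 1 the levels were 132, 319, 676 and 49.6 CPM, the last from 1 UMI in 10 rods, and within tag 2 they were 517, 459, 424 and 616 CPM with overlapping intervals, so the order held in tag 1 up to 25% and not in tag 2.

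Atf4 went the other way over the first 3 groups and did not fall further in the highest. It was at 365, 270, 166 and 182 CPM, and its share of rods at 800 UMIs was 25% (16.6 to 35.1), 13.1, 6 and 5.61% (2.09 to 11.8). Without thinning, a UMI was seen in 38.7, 20.8, 10.3 and 20% of the rods of tag 1 and in 33.3, 23.1, 13.9 and 9.68% of those of tag 2. The first 3 groups had the same order in both tags. With mitochondrial UMIs left out of the sums the levels of Atf4 were 390, 315, 210 and 287 CPM. The log2 ratio of the extreme groups was then -0.43 (-1.01 to 0.09), which spans 0, and a single rod held 41 of the 159 UMIs of the lowest group. Hspa8 was higher in the highest than in the lowest group (1.11, 0.83 to 1.39), as was Hsp90b1 (0.65, 0.22 to 1.05), while Hsp90aa1 was lower (-0.38, -0.56 to -0.22). At 2-fold, 2 of the 6 members with enough counts were higher (Hspa5 and Hspa8) and 0 lower, and Hsp90ab1 was just inside the limit at -0.997 (-1.93 to -0.25). In the lowest group the top rod of a gene held 302 of 1465 UMIs for Hsp90aa1, 49 of 269 for Hspa8 and 29 of 100 for Hsp90ab1. The ratios of these genes therefore rest in part on 1 rod each.

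The difference between the large tags was read again within these groups, since tag 2 had 12 rods up to 10% where tag 1 had 75. For the reticulum pair, the log2 ratio of tags 2 and 1 was 2.00 (1.40 to 2.52) up to 10%, 0.51 (0.26 to 0.77) from 10 to 18%, 0.03 (-0.32 to 0.40) from 18 to 25% and 1.39 (0.41 to 2.73) above. The ratio held within both groups up to 18% and was not seen from 18 to 25%. There Hspa5 was lower in tag 2 (-0.68, -1.17 to -0.15) and Hsp90b1 higher (0.63, 0.12 to 1.22). These groups take rods whatever their number of genes, so they are not the rods compared above. Up to 18%, tag 1 had 75 and 77 rods with 394426 and 260263 UMIs, of which 176 and 205 were of the pair. Its rods that passed the whole filter were 145, with 417744 UMIs and 315 of the pair. For the cytosolic genes the 4 ratios were -0.37, 0.04, 0.06 and 0.12. Only the first had an interval that left out 0, and there a single rod held 384 of the 1723 cytosolic UMIs of tag 1. Hspa8 was higher in tag 2 from 10 to 18% (0.57, 0.32 to 0.83) and lower up to 10% (-1.34, -3.40 to -0.13), where tag 2 had 4 UMIs in 12 rods. Above 18% its intervals spanned 0. Whether the mitochondrial share plays a part in the differences between tags was not tested.

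**Figure D5:**
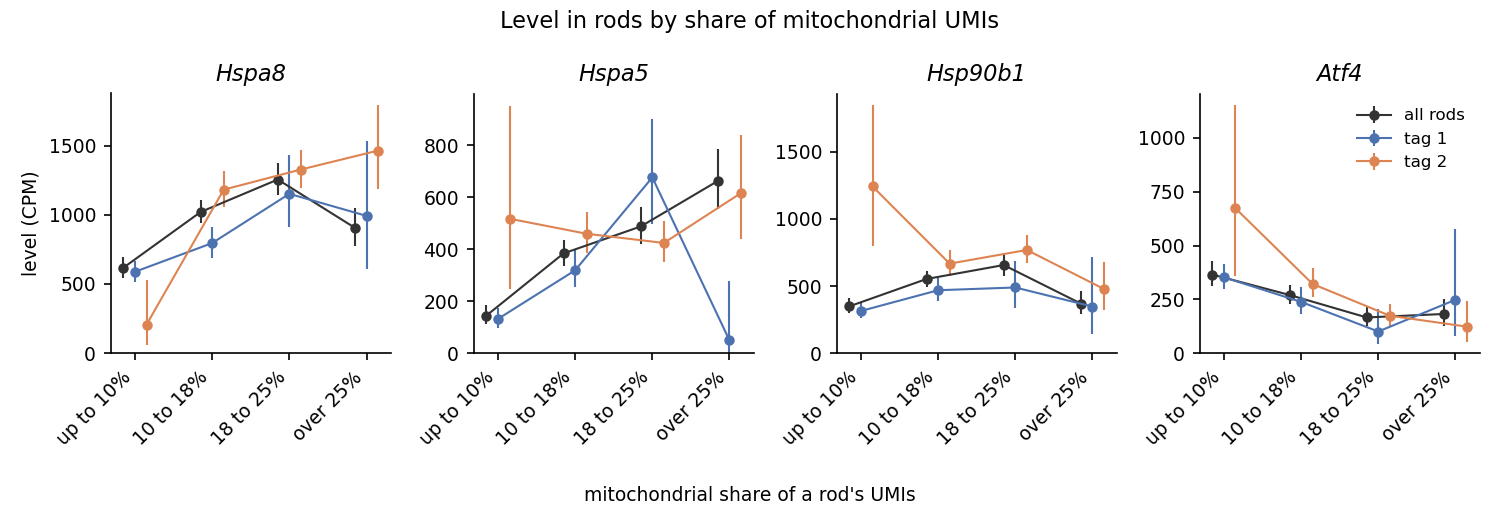
Level (CPM) of Hspa8, Hspa5, Hsp90b1 and Atf4 in rods by mitochondrial share of UMIs, for all 583 rods (black), tag 1 (blue) and tag 2 (orange), with 95% counting intervals. Over all rods Hspa5 goes from 145 to 663 CPM and Atf4 from 365 to 182, with 166 from 18 to 25%, while Hspa5 in tag 2 stays between 424 and 616. Mitochondrial UMIs are part of these totals. Without them the interval of the Atf4 ratio between the extreme groups spans 0.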

How the data were processed

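Single-cell expression of 1 pooled library of mouse retina and its sample tags were analysed. The deposited expression values are counts of UMIs per gene and barcode, from a run of Cell Ranger on build mm10 by the authors, without normalization (version 3.1.0 per the file header, 6.1.2 per the methods). The deposited tag values are counts per tag and barcode, and the authors' tag calls were used as deposited. How counting treated reads that fit several genes is not given in the sources used.

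Scrublet in scanpy 1.11.5 (expected rate 0.06) was run on the 409 barcodes that pass the filter, and the 29 it called were removed. Barcodes that do not pass, which enter the comparisons of classes and mitochondrial groups, were not screened so. The rest were scaled to 10000 UMIs, and 2000 variable genes, without the 10 genes, the related lists or the mitochondrial genes, gave 30 principal components and Leiden clusters at resolution 1 on 15 neighbours. Clusters were named from marker lists, with at least 3 markers in 25% of cells, so names can differ from those of the study. Tags were compared over rods with 200 to 2500 genes and at most 18% of UMIs from 13 mitochondrial genes, and classes over all their barcodes.

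UMIs were summed per group. CPM has exact Poisson, shares Clopper-Pearson and ratios exact conditional intervals (95%, scipy 1.17.1), which cover counting error only. UMIs of a gene gather in few rods, so the intervals are too narrow. A ratio had 0.5 UMIs added to both sums, and "enough counts" means at least 20 expected UMIs in both groups. A count of 0 was read as up to 3 counts. Rods were thinned to 1200 UMIs to compare tags and barcodes to 800 to compare classes, without shallower ones. Sums and ratios were tested on simulated counts. No test between groups was made, since each tag and class came from 1 pool.

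All 10 members are named. Of each further list the 2 genes with most UMIs in rods were chosen, and for the 3 members with most UMIs the 3 genes most alike by Spearman correlation over rods. The members and lists were chosen with earlier results of these data known. Of the 39 further cytosolic genes listed, 38 were in the matrix. Alternatives changed the cell filter, doublets, clustering, tag calls, thinning, denominators and the weight of single cells.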

Additional observations from a re-analysis of the deposited data

Results flagged for a closer look

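Barcodes that enter no comparison also held counts of these genes. The 24 barcodes whose tag call was doublet, negative or unmapped had 238 UMIs of the cytosolic genes (3640 CPM) and 34 of the reticulum pair (520 CPM). The 94 rods that were not in the tag matrix had 318 UMIs of the cytosolic genes (2615 CPM) and 132 of the reticulum pair (1086 CPM), 91 of them from Hspa5 (748 CPM). Those rods were shallower than the rest, with a median of 1106.5 UMIs and 33.1% mitochondrial UMIs.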

How the results depend on the processing

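No paired analysis was possible because each tag was 1 pool without replicates, and no replicate could be left out. All values here are log2 ratios, and the causes of the changes were not tested unless the setting itself shows them. For the reticulum pair, tags 2 and 1 gave 0.42 to 0.71 under 13 alternatives, and the cytosolic ratio minus the reticulum ratio gave -0.73 to -0.31. Hsp90ab1 in the same tags ranged from -2.34 to -0.21, Hspa5 from 0.25 to 0.76 and Hspa8 from 0.11 to 0.70. Between rods and bipolar-like barcodes Hsp90aa1 (1.47 to 1.95) and Hsp90ab1 (-2.18 to -1.27) kept their direction. With at least 10 expected UMIs in place of 20, 309 of 3513 genes were 2-fold higher and 505 lower in tag 2 than in tag 1, and with at least 50 it was 10 and 25 of 866, against 105 and 168 of 2029, since the minimum sets which genes are counted. In the values that follow, the pair is the reticulum pair and the difference is cytosolic minus reticulum. Tag 3 rests on 14 rods. With doublets kept the barcodes were clustered anew, and the rods then numbered 115, 108 and 8 for tags 1, 2 and 3. Against tag 1, the pair was at 0.12 and the difference at -0.27 without a filter on cells, both turned in sign, and at -0.12 and 0.11 with doublets kept, -0.22 and 0.037 with all cells that pass, and -0.43 and 0.51 with 1 count per gene and cell. The difference was 0.52 with tags called from tag counts and 0.57 with thinned rods. The cytosolic genes were at -0.19 with all cells that pass, -0.16 with tag counts, -0.17 thinned, -0.16 as a mean over cells and -0.40 without the top cell of each gene. Against tag 2, the pair and the difference were -0.59 and 0.46 without a filter, -1.16 and 1.23 at a limit of 25%, -0.71 and 0.71 with doublets, -0.64 and 0.41 with all cells that pass, and -0.90 and 0.82 with 1 count per cell. The difference was 1.02 from tag counts and 1.19 thinned, and the cytosolic genes were at -0.23 with all cells that pass, -0.21 from tag counts and -0.42 without top cells, where Hspa8 turned to -0.33. With 1 count per gene and cell, tags 2 and 1 gave 0.16 for the cytosolic genes and -0.31 for the difference, whose interval (-0.84 to 0.21) then spanned 0. For rods against Müller glia-like barcodes the cytosolic genes gave 0.40 with 1 count per cell (difference -1.32), 1.57 at resolution 0.5, 1.75 as a mean over cells, 2.49 without top cells (pair 3.15) and 1.17 without mitochondrial UMIs in the total (pair 1.19). Against bipolar-like barcodes they gave 0.74 with 1 count per cell (difference 0.26, Hspa8 0.66), 0.14 with passing barcodes and 0.60 thinned (pair 0.96, difference -0.36). Against cone-like barcodes they gave -0.28 thinned and 0.49 without top cells (pair 1.38). Against microglia-like barcodes they gave 0.61 with 1 count per cell (pair -0.23, difference 0.84, Hspa8 0.12, Hsp90b1 0.11), 0.43 as a mean over cells (pair -0.39, difference 0.83, Hspa5 0.0043) and 1.53 without top cells (pair -0.56, difference 2.08, Hspa8 0.30), and Hspa8 was at 0.0199 with passing barcodes.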

Other observations

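Mitochondrial chaperones, a list of 6 genes, were ordered unlike the cytosolic and reticulum members. They stood at 526 CPM in rods (491 to 563), against 1178 in bipolar-like (1061 to 1305), 1191 in cone-like (858 to 1610), 739.5 in microglia-like and 403 in Müller glia-like barcodes. All 4 of these genes with enough counts were 2-fold lower in rods than in bipolar-like barcodes, beside 14.2% of 2148 genes, with a median log2 ratio of -1.14 beside 0.20, and Hspd1 lay at the limit (-1.00065). Between tags 2 and 1, Hspe1, the co-chaperonin of the matrix, was at 223 and 124 CPM (0.84, 0.30 to 1.39), and its partner Hspd1 at 194 and 163 CPM (0.26, -0.27 to 0.78).

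Microglia-like barcodes had the highest level of the immediate early list, 5517 CPM against 558 in rods, in 7 of 17 barcodes, and of the other reticulum genes, 4289 CPM against 1779.

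The members were seen in partly separate rods. Hsp90b1 had a UMI in 49.3% of the 73 rods with Hspa5 and in 35.9% of the other 206. Hspa5 had a UMI in 6 of the 8 rods with Hsph1. Hspa1b and its neighbour Hspa1a were both seen in 2 of the 30 rods with Hspa1b. These pairings are descriptions in sparse counts.

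By Spearman correlation of levels over 279 rods among 1352 genes, the most alike to Hsp90aa1 were Ipmk (0.23), Tnpo1 (0.22) and Eif4g2 (0.22), those to Hspa8 were mt-Co3 (0.19), Slc24a1 (0.18) and Metap2 (0.17), and those to Hsp90b1 were U2af1 (0.19), Ube2m (0.19) and Cox6a1 (0.18). All rods share 1 library, and correlations this weak are no finding.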
